A study of Drosophila melanogaster with 6 samples.

Results

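The genes described here encode the heavy and light chains of the myosins that work outside the muscle sarcomere. They were chosen by name from the table of counts, as zip, sqh, Mlc-c, jar, didum, ck, Myo10A, Myo31DF, Myo61F and Myo95E, and all 10 were found among its 13395 genes. RNA was sequenced from hemocytes, the macrophage-like blood cells of Drosophila melanogaster, to compare the quiescent cells of the larva with the motile cells found at the onset of metamorphosis. There were 3 libraries from wandering L3 larvae and 3 from white prepupae. Animals of both groups carried Hml-GAL4.delta and UAS-GFP, so that GFP was made under the hemolectin (Hml) driver, and the GFP-positive cells were sorted before the RNA was extracted. Neither the number of animals behind a library nor the nature of a replicate is given, so p-values measure only the spread between these libraries.

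Myosins are motors that walk along actin filaments at the cost of ATP. Non-muscle myosin II is built from a pair of heavy chains (zip) that each carry an essential light chain (Mlc-c) and a regulatory light chain (sqh). Phosphorylation of the regulatory light chain switches the motor on and lets it assemble into the bipolar filaments that contract the cell cortex and pull in the rear of a migrating cell. The unconventional myosins do not form such filaments and instead tether membranes, carry cargo or shape protrusions, and many of them bind calmodulin in place of a dedicated light chain.

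The libraries held between 19228352 and 25958543 counts. Expression is given in CPM, counts per 1000000 counts after TMM scaling, which corrects library totals for a few dominant genes. A log2 fold change above 0 means a higher level in prepupae. All 10 myosin genes passed the filter for low counts, as did 7914 genes in all. These were tested with edgeR's quasi-likelihood test, and a gene is said to be called where its p-value, adjusted by Benjamini and Hochberg's method over all tested genes (FDR), was below 0.05. At this threshold 53.9% of all tested genes were called, 26.6% as higher and 27.3% as lower in prepupae. Of 4264 called genes 2105 were higher, and of 4383 called under scaling by total counts 1456 were. That scaling shifted the median log2 fold change of all genes by -0.197, and sqh (0.40, FDR = 0.019) and Mlc-c (0.48, FDR = 0.013) were still called higher under it. The log2 fold change of a gene fell with the length of its exons (Spearman correlation -0.40 across 7901 genes, which are not independent replicates and carry no p-value). Since heavy chains are long and light chains short, the fold changes of the myosin genes are also given with the length trend of every library removed. Of the 8 plasmatocyte markers, 7 were lower in prepupae, and their summed level was 16906 to 25041 CPM in larval and 4401 to 7029 CPM in prepupal libraries. None of the 8 was at 0 in all libraries. Hml itself, whose driver marks the sorted cells, lay between 3208 and 6364 CPM in larval and between 83.9 and 248 CPM in prepupal libraries. Summed crystal cell markers (2049 to 3211 against 555 to 1472 CPM), lamellocyte markers (1000.5 to 1398 against 520.4 to 642 CPM) and epithelial markers (604 to 901 against 259 to 282 CPM) were also lower in prepupae. All 4 crystal cell markers were called lower. Members of the other lists went both ways. Of 4 tested lamellocyte markers, cher was called lower (mean 772 against 18.4 CPM) and PPO3 higher (23.2 against 56.8 CPM), and of 6 epithelial markers cora and Nrg were called lower and baz higher. These genes were named after their values were seen. Summed fat body markers (27.8 to 34.0 against 27.0 to 34.8 CPM) and salivary gland markers (6.40 to 9.02 against 6.52 to 9.82 CPM) were low in both stages and overlapped. Of 5 tested fat body markers, Fbp1 (mean 8.13 against 13.1 CPM) and Fbp2 (0.792 against 2.28 CPM) were called higher. Lsp1gamma was called lower (14.5 against 10.5 CPM). These 3 were also named after their values were seen. No marker of any of these lists was at 0 in all libraries. In bulk RNA, fewer cells of a type and less RNA per cell cannot be told apart, and the part of these marker shifts in the results was not tested. Muscle is the other rich source of myosin RNA. Its myosin heavy chain Mhc lay at 1.71, 1.54 and 2.45 CPM in larval and at 2.08, 1.93 and 2.10 CPM in prepupal libraries.

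Of the 10 myosin genes, 2 rose and 5 fell from larval to prepupal hemocytes, while 3 were not called. Both genes that rose encode light chains of myosin II, and the 5 that fell encode unconventional heavy chains. Myo61F fell most, to a level 7.14-fold below that of larval cells. The called share, 70.0% of the members, stands beside 53.9% of all tested genes, and the median log2 fold change of the 10 genes was -0.82 against -0.026 over all. With the length trend removed 7 were called as well, but 3 of them as higher and 4 as lower, where 51.2% of all genes were called (29.2% higher, 22.0% lower). The median log2 fold change of the 10 genes was then -0.23, against 0.065 over all. With the replicate number as a block 2 were called higher and 7 lower, where 59.8% of all genes were called (29.4% higher, 30.5% lower). The libraries of the stages did not overlap for 8 members (2 higher, 6 lower), as was the case for 63.0% of all tested genes (31.2% higher, 31.8% lower).

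**Figure D1:**
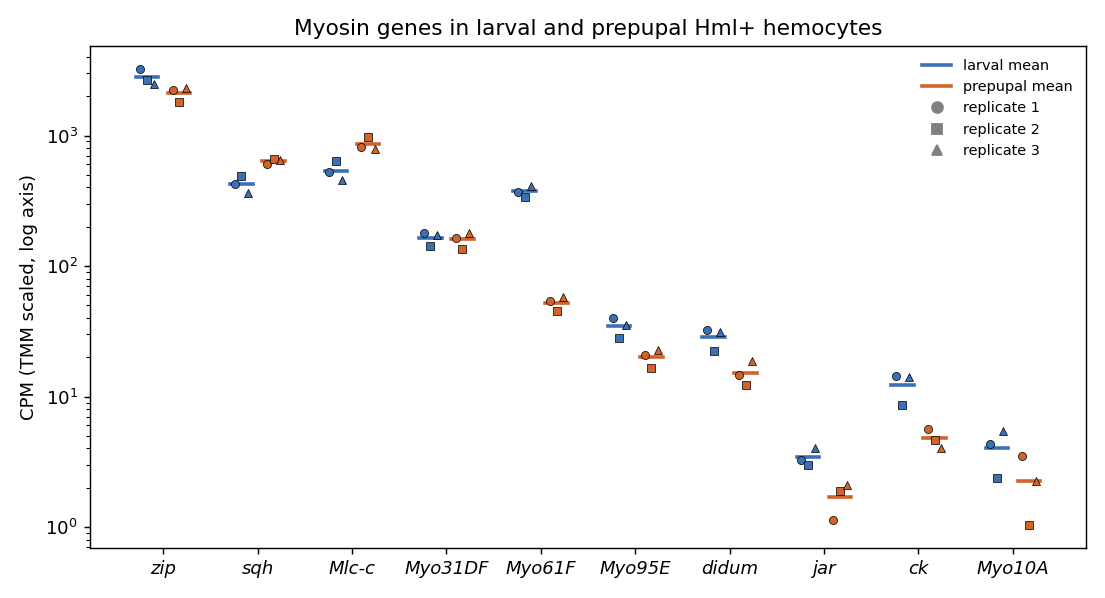
Expression of the 10 myosin genes in each library, in TMM-scaled CPM on a log axis, for 3 larval (blue) and 3 prepupal (orange) libraries, with horizontal bars for the stage means and symbols for replicate numbers. The light chain genes sqh and Mlc-c lie higher in every prepupal library, and Myo61F drops from a mean of 373 to 52.3 CPM.

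The heavy chain of non-muscle myosin II, zip (FBgn0265434, chromosome 2R of dm6, 24990570 to 25011965, minus strand), has 7242 exonic bp in 18 exon blocks. Its larval libraries held 89399, 58679 and 58128 counts and its prepupal libraries 39777, 36291 and 44409. In CPM, larval cells had 3249, 2666 and 2496 and prepupal cells 2237, 1797 and 2332. Every prepupal library lay below every larval one, though the highest prepupal and the lowest larval value were close. The log2 fold change was -0.40 ± 0.15 (SE, 95% interval -0.75 to -0.056) with an FDR of 0.0504 (edgeR), so zip just missed the threshold. With the replicate block it was called lower (log2 fold change -0.40, FDR = 0.033). With each library left out, it lay between -0.47 and -0.27 and was called only without larval replicate 3 (-0.46, FDR = 0.045). The smallest change came without larval replicate 1 (-0.27, FDR = 0.25). With the length trend removed the sign turned and zip was not called (0.15, FDR = 0.40). The stage difference of zip therefore depended on the processing in both its call and its direction.

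The regulatory light chain sqh (FBgn0003514, chromosome X, 6223061 to 6225140, minus strand) has 1578 exonic bp in 4 exon blocks. It was measured at 422, 491 and 362 CPM in larval and at 606, 666 and 653 CPM in prepupal libraries. All prepupal values were higher, and they varied less among themselves (SD 31.5 against 64.5 CPM, n = 3 each). On the log2 scale sqh rose by 0.60 ± 0.13 (SE, FDR = 0.0044, edgeR), a 1.51-fold rise. It stayed called with the length trend removed (0.54, FDR = 0.0042).

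The essential light chain Mlc-c (FBgn0004687) lies nearby on chromosome X, on the minus strand from 5619136 to 5622539, with 1399 exonic bp. Its level was 523, 633 and 455 CPM in larval libraries and 816, 970 and 789 CPM in prepupal libraries, again without overlap. Mlc-c rose by 0.68 ± 0.15 (SE, FDR = 0.0040, edgeR) on the log2 scale and 0.57 with the length trend removed (FDR = 0.0043). With any single library left out, the log2 fold change ran from 0.51 to 0.74 for sqh and from 0.58 to 0.84 for Mlc-c, and both stayed called each time. Neither reached a 2-fold change.

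**Figure D2:**
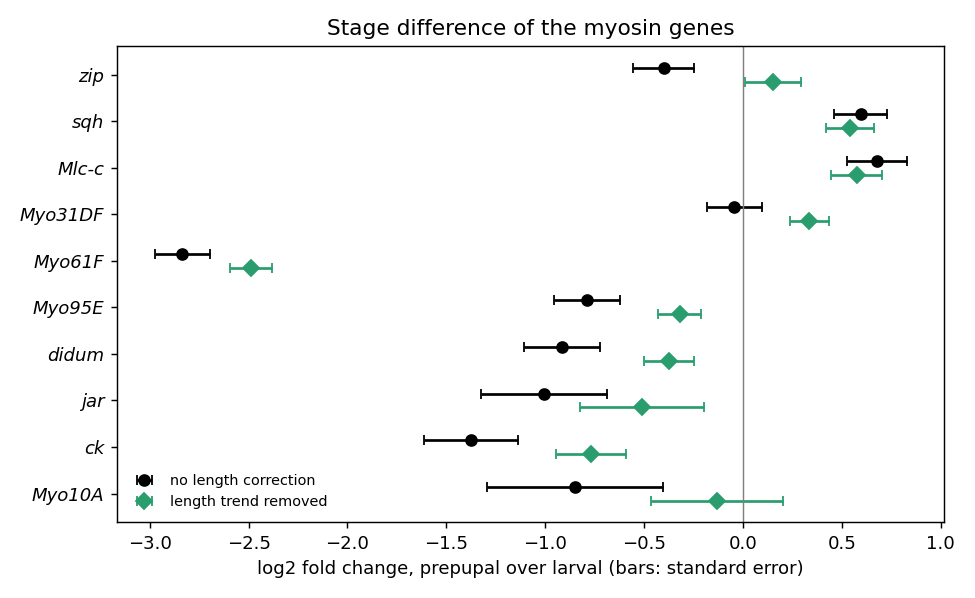
Log2 fold change of each myosin gene, prepupal over larval, with its standard error as bars, from the fit without a length correction (black circles) and with the length trend of every library removed (green diamonds). The light chains stay on the right and Myo61F far on the left in both, zip moves from -0.40 to 0.15 and Myo31DF from -0.044 to 0.33.

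A ratio of genes within a library does not depend on the scaling between libraries. Per exonic kb, the ratio of sqh to zip was 0.595, 0.845 and 0.665 in larval and 1.24, 1.70 and 1.28 in prepupal libraries. The ratio of Mlc-c to zip was 0.833, 1.23 and 0.943 in larval and 1.89, 2.79 and 1.75 in prepupal libraries. Per exonic kb, light chain RNA was thus below heavy chain RNA in all larval libraries for sqh and above it in all prepupal libraries for both chains. Which chain stands higher depends on the length divided by, here all annotated exonic bases. That division cancels out in the shift between the stages. The shift between the stages was 2.01-fold for sqh and 2.12-fold for Mlc-c, or 1.01 and 1.09 on the log2 scale. An exact two-sided permutation test gave p = 0.10 for each ratio (adjusted over both, 0.10), which is the smallest p that 3 against 3 libraries allow. Within same-numbered pairs the log2 shift of sqh to zip was 1.06, 1.01 and 0.95, and that of Mlc-c to zip was 1.18, 1.19 and 0.89. With the length trend removed, the shifts were 1.31-fold and 1.33-fold. The light chains kept their proportion to each other more closely. The ratio of Mlc-c to sqh was 1.40, 1.45 and 1.42 in larval libraries and 1.52, 1.64 and 1.36 in prepupal libraries, and these overlap.

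**Figure D3:**
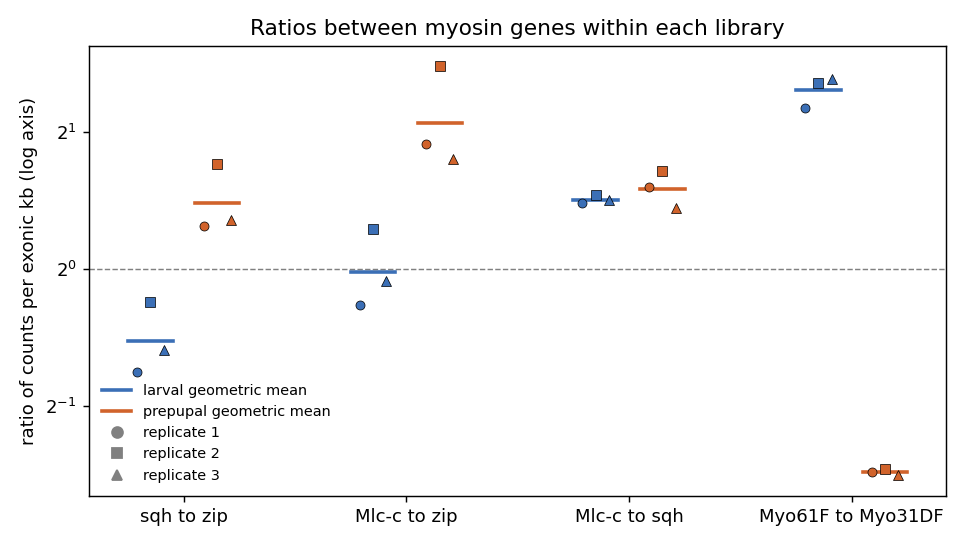
Ratio of counts per exonic kb between myosin genes within each library, on a log axis, for 3 larval (blue) and 3 prepupal (orange) libraries, with bars for the geometric means. The ratio of sqh to zip lies between 0.595 and 0.845 in larval and between 1.24 and 1.70 in prepupal libraries, the ratio of Mlc-c to sqh overlaps between the stages, and that of Myo61F to Myo31DF drops from between 2.26 and 2.61 to between 0.352 and 0.363.

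Myo61F and Myo31DF encode class I myosins, single-headed motors that link membranes to actin. In the fly embryo and larva they are known for opposite actions on left-right asymmetry. Myo61F (FBgn0010246, chromosome 3L, 1318480 to 1329617, plus strand) was expressed at 371, 336 and 413 CPM in larval and at 53.9, 44.9 and 58.0 CPM in prepupal hemocytes. The groups were far apart. Its log2 fold change was -2.84 ± 0.14 (SE, FDR = 1.2e-06, edgeR), between -2.91 and -2.74 with each library left out, and -2.49 with the length trend removed.

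Myo31DF (FBgn0086347, chromosome 2L, 10491814 to 10506779, minus strand) was measured at 179, 143 and 172 CPM in larval and at 164, 135 and 180 CPM in prepupal libraries, which overlapped throughout. Its log2 fold change was -0.044 (95% interval -0.35 to 0.27, FDR = 0.80, edgeR), and turned positive without larval replicate 1 (0.029), larval replicate 3 (0.0067) or prepupal replicate 2 (0.064). With the length trend removed, Myo31DF was called higher (0.33, FDR = 0.016). These genes have similar exonic lengths, 3955 and 4318 bp, so their ratio was little touched by that correction. Per exonic kb, the ratio of Myo61F to Myo31DF was 2.26, 2.57 and 2.61 in larval libraries and 0.358, 0.363 and 0.352 in prepupal libraries. The log2 shift was -2.79, and -2.82 with the length trend removed. The more abundant class I myosin was Myo61F in every larval and Myo31DF in every prepupal library, a comparison chosen after the values were seen.

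Myo95E, an unconventional myosin heavy chain (FBgn0039157, chromosome 3R, 24154826 to 24161498, minus strand), fell from 39.8, 28.3 and 35.3 CPM in larval to 20.7, 16.5 and 22.7 CPM in prepupal libraries, with no overlap. This was a log2 fold change of -0.79 ± 0.17 (SE, FDR = 0.0033, edgeR) and -0.32 with the length trend removed (FDR = 0.032). Its exons share 71 bp with CG6178 on the opposite strand, and the library kit did not mark strand. CG6178 had 1305 to 1470 counts in larval and 986 to 1441 in prepupal libraries, against 623 to 1094 and 334 to 433 for Myo95E.

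Class V myosins carry vesicles and organelles toward the barbed ends of actin filaments, and didum is the fly member of this class (FBgn0261397, chromosome 2R, 7500147 to 7508625, plus strand). It was expressed at 32.2, 22.5 and 31.3 CPM in larval and at 14.7, 12.3 and 18.6 CPM in prepupal hemocytes, without overlap. For didum the log2 fold change was -0.92 ± 0.19 (SE, FDR = 0.0030, edgeR) and -0.38 with the length trend removed (FDR = 0.030). On the opposite strand didum shares 99 exonic bp with mEFTu2, which had 698 to 760 counts in larval and 541 to 645 in prepupal libraries. The counts of didum itself ran from 495 to 885 and from 248 to 354.

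The class VI myosin jar (FBgn0011225, chromosome 3R, 24252826 to 24271233, minus strand) is the fly motor that moves toward the pointed end of actin filaments. It had 90, 66 and 94 counts in larval and 20, 38 and 40 counts in prepupal libraries, or 3.27, 2.998 and 4.04 against 1.12, 1.88 and 2.10 CPM. The stages did not overlap at this low level. A log2 fold change of -1.01 ± 0.32 was measured (SE, FDR = 0.022, edgeR). The call of jar was lost without larval replicate 1 (-1.03, FDR = 0.060), larval replicate 3 (-0.86, FDR = 0.076) or prepupal replicate 1 (-0.78, FDR = 0.063), and with the length trend removed (-0.51, FDR = 0.20).

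The class VII myosin ck, known for its part in shaping bristles and wing hairs, is at chromosome 2L from 15044963 to 15057862, minus strand (FBgn0000317). Its levels were 14.3, 8.68 and 14.1 CPM in larval and 5.62, 4.65 and 4.04 CPM in prepupal libraries, the lowest larval value being that of replicate 2. Between the stages the log2 fold change of ck was -1.38 ± 0.24 (SE, FDR = 0.0011, edgeR) and -0.77 with the length trend removed (FDR = 0.0050).

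Myo10A (FBgn0263705, chromosome X, 10930840 to 10964046, plus strand), the longest of the 10 with 13273 exonic bp, had the lowest level per exonic kb in both stages. It had 120, 52 and 126 counts in larval and 62, 21 and 43 in prepupal libraries, so the stages overlapped. The log2 fold change was -0.85 (95% interval -1.84 to 0.15, FDR = 0.13, edgeR). Myo10A was called lower with the replicate block (-0.89, FDR = 0.032), while it lay at -0.13 with the length trend removed (FDR = 0.77). With each library left out it ran from -1.30 to -0.50, and was called only without prepupal replicate 1 (-1.30, FDR = 0.047). On the opposite strand Myo10A shares 15 exonic bp with C901, and Myo31DF shares 479 bp, the longest overlap of the 10 genes, with asRNA:CR44224. Both of these partners had at most 1 count in any library.

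Levels of different genes can be compared only per length, here as CPM per exonic kb over all annotated exons, which understates genes with long and little used exons. In larval cells, zip (387 ± 54.5) and Mlc-c (384 ± 64.2) stood first and did not differ beyond their spread, followed by sqh (269 ± 40.9), Myo61F (94.3 ± 9.74) and Myo31DF (38.1 ± 4.44; SD, n = 3 each). In prepupal cells Mlc-c (614 ± 69.6) came first, then sqh (407 ± 19.9), zip (293 ± 39.4), Myo31DF (37.0 ± 5.28) and Myo61F (13.2 ± 1.70). The order below these was the same in both stages, from Myo95E (6.41 and 3.72 CPM per kb) over didum (4.41 and 2.34), ck (1.67 and 0.645) and jar (0.609 and 0.302) to Myo10A (0.305 and 0.170). In prepupal libraries the ranges of jar and Myo10A overlapped, and apart from these and larval zip and Mlc-c no neighbours in either order did. Each gene of myosin II ranked above at least 96.2% of 7901 tested genes in both stages, whereas Myo61F went from above 91.2% to above 53.0% of them.

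Among the 8 heavy chains, zip made up 74.9, 74.1 and 68.5% of the RNA per kb in larval and 84.0, 83.6 and 83.3% in prepupal libraries. Myo61F made up 15.7, 17.1 and 20.7% in larval and 3.71, 3.83 and 3.80% in prepupal libraries, and Myo31DF 6.91, 6.66 and 7.93% against 10.3, 10.5 and 10.8%. Each of these shares was separate between the stages, and the prepupal libraries were nearly alike. Of the unconventional heavy chains alone, Myo61F held 62.4 to 66.0% in larval and 22.7 to 23.3% in prepupal libraries. These shares are descriptions and rest on the same counts as the fold changes. They are parts of a whole, so a share can rise without a rise in level. The mean CPM per kb of zip was 387 in larval and 293 in prepupal libraries. For Myo31DF it was 38.1 and 37.0, and for Myo61F 94.3 and 13.2.

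The genes that act on the regulatory light chain moved in both directions. Of 13 such genes, 12 passed the low-count filter, 2 rose, 4 fell and 6 were not called (median log2 fold change -0.19 against -0.026 over all genes). The 6 called of 12 are close to the 53.9% of all tested genes. The balance turned with the length trend removed, with 4 called higher and 1 lower. Of all tested genes, 29.2% were then called higher and 22.0% lower. Both genes that rose without this correction encode kinases. Drak, a kinase of the death-associated family that phosphorylates sqh, went from 40.8, 32.8 and 28.9 CPM to 77.5, 76.0 and 75.4 CPM. Its log2 fold change was 1.16 ± 0.14 (SE, FDR = 0.000155, edgeR), between 1.07 and 1.31 with each library left out and 1.58 with the length trend removed. Strn-Mlck, which encodes giant muscle proteins as well as a myosin light chain kinase, rose from 2.22, 1.27 and 1.29 to 4.61, 3.76 and 3.83 CPM (log2 fold change 1.34, FDR = 0.0052, edgeR, and 2.03 with the length trend removed). It had only 61, 28 and 30 counts in larval and 82, 76 and 73 in prepupal libraries, over 32768 exonic bp. Counts per gene do not tell its kinase and muscle products apart.

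Of the listed genes for the phosphatase that removes the phosphate from sqh, Mbs and flw were called lower. MYPT-75D was not called (log2 fold change -0.086, FDR = 0.86, edgeR). The myosin-binding subunit Mbs fell from 112, 71.3 and 105 to 46.1, 37.3 and 51.5 CPM (log2 fold change -1.09 ± 0.19 SE, FDR = 0.0010, edgeR), and stayed called at -0.47 with the length trend removed (FDR = 0.0032). The catalytic subunit flw fell from 38.7, 30.2 and 37.5 to 26.3, 24.6 and 24.8 CPM (-0.49, FDR = 0.010), and was not called with the length trend removed (-0.11, FDR = 0.39) or without larval replicate 1 (-0.41, FDR = 0.060).

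Upstream of these enzymes, the GTPase exchange factors RhoGEF2 and pbl, the latter known from cytokinesis, were lower by log2 fold changes of -0.44 (FDR = 0.024) and -0.49 (FDR = 0.012, edgeR). With the length trend removed RhoGEF2 lay at 0.18 and pbl at -0.010, both not called. RhoGEF2 lost its call without larval replicate 1 (-0.32), larval replicate 3 (-0.42), prepupal replicate 1 (-0.41) or prepupal replicate 2 (-0.38), and pbl without larval replicate 1 (-0.45). RhoGAPp190, a GTPase-activating protein, was at -0.29 on the log2 scale (FDR = 0.16, edgeR). It was called lower with the replicate block (-0.29, FDR = 0.018) and without larval replicate 2 (-0.39, FDR = 0.048), and higher with the length trend removed (0.31, FDR = 0.023). A further 3 tested genes of this list, MYPT-75D among them, were not called and lay between -0.26 and -0.086.

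**Figure D4:**
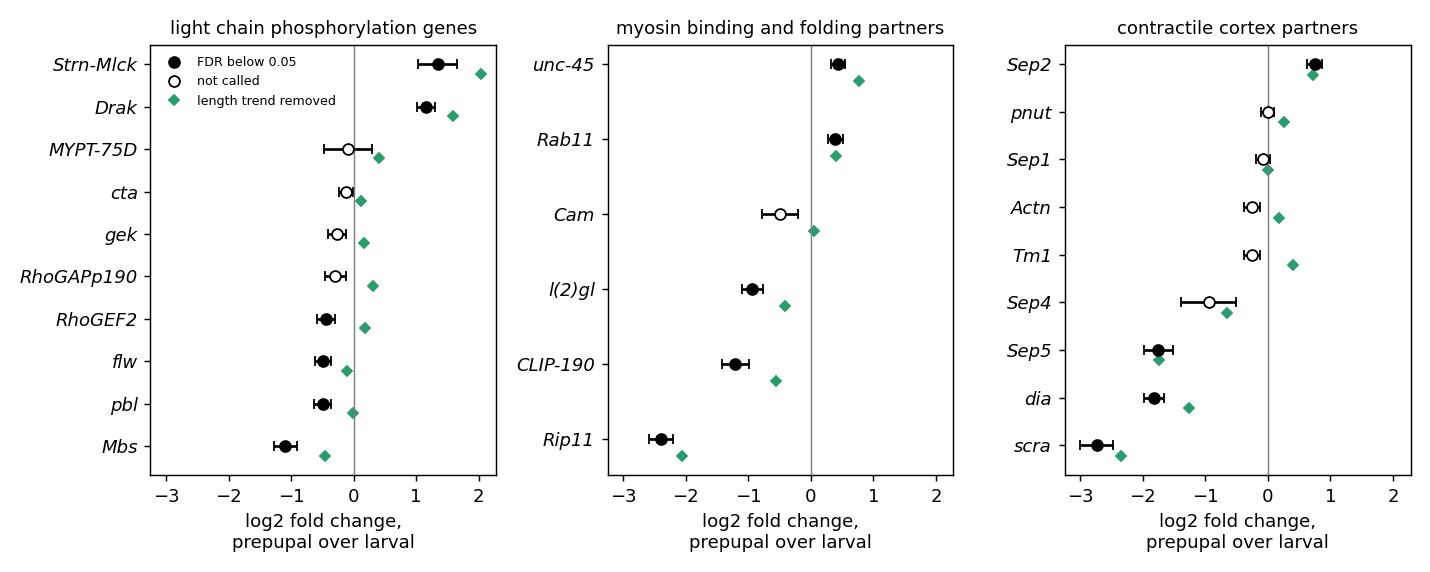
Log2 fold change, prepupal over larval, of tested genes in 3 lists of myosin regulators and partners, with standard errors as bars, filled circles for genes at an FDR below 0.05, open circles for genes not called, and green diamonds for values with the length trend removed. Drak (1.16) and Strn-Mlck (1.34) lie on the right and Mbs (-1.09), Rip11 (-2.40), scra (-2.74) and dia (-1.81) on the left.

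Of 8 genes for proteins that fold or bind myosins, 6 were tested, 2 rose and 3 fell (median log2 fold change -0.71, 83.3% called against 53.9% of all genes), and the counts were the same with the length trend removed. The chaperone unc-45, which folds myosin motor domains, rose from 48.2, 50.2 and 42.5 to 63.6, 59.2 and 67.3 CPM (log2 fold change 0.43, FDR = 0.011, edgeR). The value was 0.78 with the length trend removed, and the call was lost under scaling by total counts (0.24, FDR = 0.11). Rab11, a GTPase of recycling endosomes, was higher as well (0.39, FDR = 0.020), but lost its call without larval replicate 1 (0.40), larval replicate 3 (0.34), prepupal replicate 2 (0.37) or prepupal replicate 3 (0.37), and under scaling by total counts (0.20, FDR = 0.16). It was called with the length trend removed (0.41, FDR = 0.0099). Its effector Rip11, which acts with didum in fly photoreceptors, fell from 619, 518 and 581 to 138, 81.0 and 108 CPM, a log2 fold change of -2.40 ± 0.19 (SE, FDR = 1.3e-05, edgeR) and -2.06 with the length trend removed. CLIP-190, a microtubule-binding partner of jar, fell by 1.20 and l(2)gl, a cortical polarity protein that binds zip, by 0.93 on the log2 scale (FDR = 0.0014 and 0.0013, edgeR). Both stayed called with the length trend removed, at -0.56 and -0.42. Calmodulin (Cam), the light chain of many unconventional myosins, was at 338, 152 and 411 CPM in larval and at 197, 209 and 235 CPM in prepupal libraries, so larval replicate 2 lay below all prepupal ones. Its log2 fold change was -0.49 (FDR = 0.18, edgeR), and -0.78 without larval replicate 2 (FDR = 0.00052).

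Of 9 genes that organize contractile actin at the cortex, all tested, 1 rose and 3 fell (median log2 fold change -0.26). The called share was 44.4%, against 53.9% of all tested genes. Removing the length trend gave 2 called higher and 3 lower, beside 29.2% higher and 22.0% lower of all tested genes. Anillin (scra), which anchors myosin II and septins in the cytokinetic ring, fell from 40.8, 40.5 and 63.9 to 6.41, 5.35 and 10.03 CPM (log2 fold change -2.74, FDR = 4.2e-05, edgeR). The formin dia, which elongates the filaments that myosin II pulls on, fell from 32.6, 26.8 and 39.2 to 9.62, 9.11 and 9.29 CPM (-1.81, FDR = 2.6e-05). The septin Sep5 fell by 1.75 on the log2 scale (FDR = 0.00024, edgeR), a gene named after its values were seen. In contrast Sep2, another septin, rose from 296, 340 and 275 to 483, 541 and 504 CPM (0.75, FDR = 0.00076). These 4 genes stayed called with the length trend removed, scra at -2.35, dia at -1.26, Sep5 at -1.74 and Sep2 at 0.72. Tropomyosin (Tm1), α-actinin (Actn) and the septins pnut and Sep1 were not called, with log2 fold changes of -0.26, -0.25, 0.0011 and -0.082. Tm1 was called lower with the replicate block (-0.25, FDR = 0.045) and without larval replicate 2 (-0.34, FDR = 0.030), and higher with the length trend removed (0.40, FDR = 0.015). Under scaling by total counts Tm1 (-0.46, FDR = 0.020) and Actn (-0.45, FDR = 0.011) were called lower.

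Of the 6 other myosin heavy chain genes of the fly, 4 were tested, and 50% of these were called, against 53.9% of all tested genes. Mhcl, a class XVIII myosin, had the highest CPM of them, at 183, 157 and 153 CPM in larval and 112, 94.2 and 139 CPM in prepupal libraries. It was called lower (log2 fold change -0.51, FDR = 0.017, edgeR), but not without larval replicate 1 (-0.42), prepupal replicate 1 (-0.49) or prepupal replicate 2 (-0.38), and it lay at 0.14 with the length trend removed. Myo28B1, a further class VII myosin, had 18, 13 and 3 counts in larval and 32, 19 and 32 in prepupal libraries (1.66, FDR = 0.027, and 2.20 with the length trend removed). It lost its call without larval replicate 3 (1.24), prepupal replicate 1 (1.49) or prepupal replicate 3 (1.55). Mhc (log2 fold change 0.10, FDR = 0.80) and d (0.18, FDR = 0.82, edgeR) were not called. Of 11 tested muscle genes, 1 was called (9.09%, against 53.9% of all tested genes). Low counts widen the errors, and Mhc, for example, had 34 to 57 counts per library. The called gene was bt, which encodes the giant protein projectin. It was at 36.9, 12.4 and 119 CPM in larval and at 8.94, 5.15 and 7.88 CPM in prepupal libraries (log2 fold change -2.94, FDR = 0.0047, edgeR), and its log2 fold change was -1.74 without larval replicate 3 and -2.04 with the length trend removed. The summed level of the 14 muscle genes found was 62.0 to 178 CPM in larval and 48.6 to 64.1 CPM in prepupal libraries, and none of them was at 0 in all libraries.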

How the data were processed

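RNA of sorted GFP-positive hemocytes was sequenced from 3 larval and 3 prepupal libraries. The authors trimmed adapters (trimmomatic), aligned single-end reads to dm6 with STAR and an Ensembl annotation and, as the submitters' processing notes add, used featureCounts and DESeq2. The libraries were not stranded, and no source used here states the strand setting of the counting. What the authors deposited are integer counts, neither normalized nor pooled. The totals were 19228352 to 25958543 counts per library, and lower counts give wider errors.

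The whole table was fitted with edgeR 4.0.16 under R 4.3.3 (TMM, filterByExpr with a minimum count of 10, quasi-likelihood test, FDR below 0.05), and 7914 genes were tested. All 10 members passed the filter. Standard errors (SE) were derived from the log2 fold change and its F statistic, as the former over the root of the latter. Intervals are at 95% and not adjusted. Coordinates are those of the deposited table, and exonic lengths were taken from a later release of the Ensembl annotation (same assembly), where 13332 of 13395 gene IDs were found and a further 39, zip among them, were matched by symbol and identical coordinates. The length trend was fitted per library by loess (span 0.5) of log2 CPM (prior count 2) on log2 exonic length, and edgeR took the fitted values as offsets.

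Replicates 1 to 3 of both stages carry matching numbers. Deviations from the stage means of same-numbered libraries correlated across genes at 0.28, 0.30 and 0.10 (0.1015 for replicate 3), each above 0.1, so the numbers were taken to pair the libraries. What a number refers to is not stated. The methods name no block, so the values given are unblocked, and blocked values are given where a call changed.

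Alternatives were other scaling factors, DESeq2 1.42.0, limma-voom (limma 3.58.1), no filter, a filter on the mean count (10 or more), the replicate block, removal of the length trend, a change of 2-fold or more, an FDR of 0.01, and each library left out. The members and lists were chosen with earlier results of these data known. All 10 members were named, as were most tested genes of the lists of regulators, partners and other myosins. The tested genes cta and gek of the phosphorylation list are given only within a range. Of the cortex and muscle lists, the 2 called genes with the largest change and genes of at least 50 CPM were named. The values of 2 tested genes of the light chain phosphorylation list are not reported here, though they enter its counts. The fits were tested on simulated data with known changes. Where a length trend was simulated, the edgeR fits without its removal, blocked or not, made many more false calls than the fit with it removed. That outcome was built into the simulation, since the simulated trend was of the kind this fit removes. Whether the length trend of the data is technical was not tested.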

Additional observations from a re-analysis of the deposited data

How the results depend on the processing

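Of the 10 members, sqh, Mlc-c, didum, ck, Myo61F and Myo95E kept their direction and an FDR below 0.05 throughout. This held under every other scaling, filter, test, block or length setting and with each library left out. With at least 2-fold required, 1580 genes and 3 of the 10 myosin genes were called, with 1 of the other myosin heavy chains, 3 light chain phosphorylation genes and 2 binding and folding partners. At an FDR of 0.01, 2934 of 7914 tested genes and 6 of the 10 myosin genes were called. So were 3 of 12 tested phosphorylation genes, 3 of 6 partners and 0 of 4 other myosin heavy chains. Of these heavy chains, 2 were called by DESeq2 or limma-voom at 0.05 and 2 at an unadjusted p below 0.05 (edgeR). Scaling by total counts shifted the median log2 fold change of all genes by -0.197 and called 3 partners and 7 cortex genes, made RhoGAPp190 (-0.49), Tm1 (-0.46) and Actn (-0.45) called and unc-45 (0.24) and Rab11 (0.20) not called, and put Mhc at -0.10 and pnut at -0.20. pnut lay at -0.011 with upper-quartile factors and at -0.011 without the low-count filter.

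Removing the length trend left 1 of the other myosin heavy chains called, and 1 with the replicate block added. It reversed zip (0.15, and 0.17 with the block), Myo31DF (0.33 and 0.33), Mhcl (0.14 and 0.15), RhoGEF2 (0.18 and 0.18), RhoGAPp190 (0.31 and 0.31), Cam (0.054 and 0.11), Tm1 (0.40 and 0.40), Actn (0.18 and 0.20) and Sep1 (0.0061 and 0.0049). The causes were not tested. The replicate block alone changed, of the named genes, only the calls of zip, Myo10A, RhoGAPp190 and Tm1, and its shift of the light chain ratios to zip was the same in size (1.01 and 1.09, exact sign-flip p = 0.25, the smallest 3 pairs allow).

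With each library left out, 6 to 7 myosin genes, 0 to 2 other myosin heavy chains, 3 to 7 phosphorylation genes and 3251 to 4552 genes in all were called. The 3 phosphorylation genes came without larval replicate 1, and of the other heavy chains 0 were called without prepupal replicate 1, 2 without larval replicate 2 and 1 otherwise. The log2 fold change ran from -0.14 to 0.064 for Myo31DF and from -0.036 to 0.049 for pnut. The zip call was gained with total counts (-0.59), upper-quartile factors, no filter, DESeq2 or limma-voom as well as the block. Genes with few counts, such as jar and Myo10A, had the widest errors of the 10.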
